A study of Homo sapiens with 25 samples.

Results

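The established human leukaemia line DND-41, of T-cell acute lymphoblastic origin, was compared at 25% and at 50% of the full amount of histidine in the medium. The comparison used 10 of the 25 RNA sequencing libraries of the series, chosen by their labels for histidine level and day. At 25% histidine there were 5 libraries, 2 from day 6 and 3 from day 9. At 50% histidine there were also 5, of which 3 were from day 6 and 2 from day 9. Further libraries at 100% (6 libraries) and 12.5% (6 libraries) were used to place this halving of histidine between the halvings before and after it. All groups were the same line and differed by histidine level and by day, with no other treatment in the labels. The series text names days 3 and 6, whereas the samples carry days 6 and 9, which are used here. The line is the sole model. Nothing in the labels ties a replicate to its own culture, and the spread behind the p-values may therefore be technical.

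Histidine is an amino acid that human cells take up from the medium. Cells short of an amino acid accumulate uncharged tRNA, which activates the kinase GCN2 and through it the transcription factor ATF4. They also lower the activity of mTORC1, a kinase complex that drives ribosome production and, through the transcription factors called SREBPs, the synthesis of sterols and fatty acids. FOXO factors, which are restrained by growth signals, switch on genes of quiescence, and the genes of mitosis are switched on together late in the cell cycle.

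Values are normalized counts, that is, read estimates per gene scaled between libraries by the authors. Changes are differences of log2(normalized count + 1), 25% minus 50%, with day as a term, and a gene was called when its Benjamini-Hochberg adjusted p from limma was below 0.05. This scale understates changes of genes with low counts. Of 16816 genes tested, 1987 were higher at 25% (11.8%) and 2045 were lower (12.2%), together 24.0% of genes tested, with a median change of 0.0017 over all of them. Among the called genes, 988 rises and 1019 falls exceeded 0.5 on the log2 scale, 215 rises and 147 falls exceeded 1, and 31 rises and 16 falls exceeded 2. In 3837 genes (22.8%) every 25% library lay on the same side of every 50% library of its day on both days, and 3285 of the 4032 called genes were among them.

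The 10 libraries were alike in size, with normalized totals of 14.4 to 16.1 M and 14425 to 15850 genes at 10 or more. Of the 15 T-lineage markers 14 were at 10 or more in every library, the exception being PTCRA, at most 6.05. Libraries stood apart in keratin, an epithelial gene product. KRT8, KRT18 and KRT19 summed to 788 and 1358 in 2 of the 25% libraries (day 9, replicates 1 and 3) and to 1196 and 119 in 2 of the 50% libraries (day 6, replicates 1 and 2), against at most 56.4 in the other 6. None of the 10 epithelial markers was at 10 or more in every library. Without these 4 libraries, which left 3 against 3, 1351 genes were called (792 higher, 559 lower), and 1316 of them were also called with all 10. With the keratin sum as a covariate in all 10 libraries, 3733 genes were called (1854 higher, 1879 lower), and 3697 of them were called without it. Counts of list members without the 4 libraries, a fit that also has fewer libraries, stand beside each list below. Over all genes that fit called 792 of 16074 higher and 559 lower, against 1987 and 2045 of 16816 with all 10 libraries (11.8% and 12.2%). Fewer calls in a list therefore go with fewer calls over all genes. Some list counts of 0 to 2 moved with single libraries, and no conclusion about a list is drawn from a count of that size. In bulk RNA, fewer cells of a type and less RNA per cell cannot be told apart.

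Genes of cholesterol synthesis were lower at 25% histidine. Of the 21 enzymes on the list, all of them tested, 17 were called lower and none higher, with a median change of -0.69. The genes for the last steps of the pathway were among those with the smallest p. DHCR7, which makes the final reduction to cholesterol, had 608 and 602 normalized counts in the 25% libraries of day 6 and 506, 522 and 550 in those of day 9, against 1738, 1868 and 1359 in the 50% libraries of day 6 and 1504 and 1723 in those of day 9. All 25% libraries lay below all 50% libraries, and the change was -1.52 ± 0.10 (SE; limma adjusted p = 5.35e-07). LSS, which folds the open chain of squalene into the sterol ring, had 1101 and 1118 (day 6) and 1033, 949 and 969 (day 9) at 25%, against 2983, 2722 and 2867 (day 6) and 2141 and 2322 (day 9) at 50%. Its groups did not overlap either, and its change was -1.27 ± 0.07 (limma adjusted p = 3.61e-07). HMGCS1, near the start of the mevalonate pathway, averaged 1609 ± 207 at 25% and 2803 ± 154 at 50% (SD, n = 5 each; change -0.76). Calls of these 3 genes stood in all 25 alternatives. With the 4 keratin-high libraries left out, 9 of the 21 enzymes were called lower, with a median of -0.57, and with keratin as a covariate 17 were.

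Fatty acid genes moved the same way. Of 11 tested members of that list 7 were called lower and 1 higher, with a median change of -0.60. SCD, the desaturase that makes monounsaturated fatty acids, had 11869 and 10632 (day 6) and 8991, 8225 and 9009 (day 9) at 25%, against 23083, 22600 and 22473 (day 6) and 18830 and 21935 (day 9) at 50%. Its 25% libraries were all below its 50% libraries (change -1.12 ± 0.08, limma adjusted p = 1.19e-06). FADS2, a desaturase of polyunsaturated fatty acids, averaged 5562 ± 571 at 25% and 12022 ± 932 at 50% (n = 5 each; change -1.08). FASN, the synthase that builds the chain, averaged 3874 ± 381 at 25% and 7302 ± 812 at 50% (change -0.90). Without the 4 libraries high in keratin 6 were called lower and none higher. The member called higher was ELOVL5, an elongase, with a change of 0.21, and it is named after its value was seen.

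Genes that sense, take up and export sterols had no common direction. Of 15 tested, 4 were called higher and 4 lower, and the median change was -0.09. With the 4 keratin-high libraries left out, 1 of 14 was called higher and 2 lower, and 1 was called higher without either of the day 6 libraries at 25%. INSIG1, which holds SREBPs in the endoplasmic reticulum and is itself an SREBP target, averaged 2375 ± 299 at 25% and 3818 ± 354 at 50% (n = 5 each; change -0.69). NR1H2, an oxysterol-sensing receptor, was higher, with 1614 ± 181 at 25% and 1083 ± 130 at 50% (change 0.55).

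**Figure D1:**
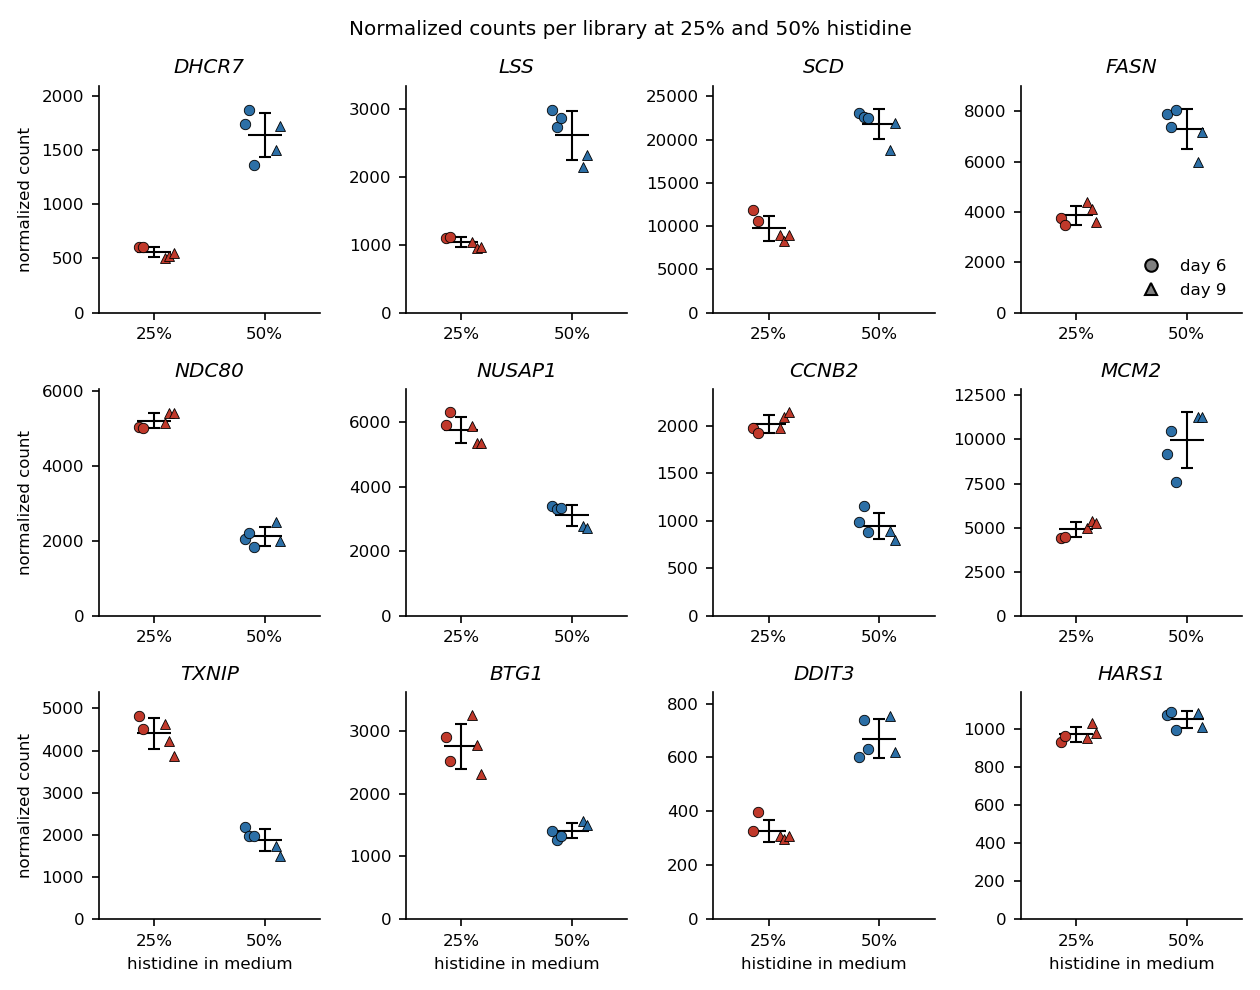
Normalized counts of 12 genes in each library (vertical axes, linear from 0), with 25% histidine in red on the left and 50% in blue on the right, circles for day 6 and triangles for day 9. Horizontal bars show the mean and vertical bars the SD of 5 libraries. DHCR7, LSS, SCD, FASN, MCM2 and DDIT3 sit lower at 25% and NDC80, NUSAP1, CCNB2, TXNIP and BTG1 higher, with no overlap, whereas the HARS1 values of both levels overlap.

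Genes of G2 and mitosis were higher at 25% histidine. Of the 32 on the list, all tested, 23 were called higher and 1 lower, with a median change of 0.53, and 19 were called higher and 1 lower without the 4 libraries high in keratin. NDC80, which ties kinetochores to spindle microtubules, had 5034 and 5002 (day 6) and 5146, 5414 and 5402 (day 9) at 25%, against 2042, 2208 and 1834 (day 6) and 2496 and 2006 (day 9) at 50%. The lowest 25% library was above the highest 50% library, and the change was 1.28 ± 0.08 (limma adjusted p = 4.80e-07). CCNB2, a B-type cyclin that pairs with CDK1, had 1971 and 1920 (day 6) and 1970, 2090 and 2138 (day 9) at 25%, against 991, 1156 and 877 (day 6) and 888 and 799 (day 9) at 50% (change 1.12 ± 0.09, limma adjusted p = 4.67e-06). Here too the levels did not overlap. NUSAP1, a spindle microtubule protein, averaged 5762 ± 414 at 25% and 3120 ± 331 at 50% (n = 5 each; change 0.93). ANLN, a scaffold of the contractile ring, averaged 2242 ± 212 at 25% and 1107 ± 40.3 at 50% (change 0.99). The exception was AURKB, the kinase of the chromosomal passenger complex, which averaged 2093 ± 77.2 at 25% and 3869 ± 461 at 50% (change -0.88) and is named after its values were seen. MKI67, a proliferation antigen, was not called, with 28790 ± 766 at 25% and 24244 ± 6758 at 50% (change 0.35, limma adjusted p = 0.0844).

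Promoters of genes from these lists are shown because the list members moved together. They come from RefSeq (GRCh38.p14) and run from 250 bases before to 50 bases after the start of the gene, 5′ to 3′ on the gene's strand. Capitals mark the CCAAT box, read as CCAAT or its reverse complement ATTGG, and the cell cycle homology region (CHR), read as TTTGAA or its reverse complement TTCAAA. The promoters shown were chosen for these motifs among called members: mitosis genes had to hold both, and sterol genes a CCAAT box. Their presence in the promoters shown is therefore not a result. The CHR was added to the motifs after the data were seen, and PLK1, a kinase of mitotic entry, was named after its values were seen.
NUSAP1 promoter, chr15:41332631-41332930, plus strand: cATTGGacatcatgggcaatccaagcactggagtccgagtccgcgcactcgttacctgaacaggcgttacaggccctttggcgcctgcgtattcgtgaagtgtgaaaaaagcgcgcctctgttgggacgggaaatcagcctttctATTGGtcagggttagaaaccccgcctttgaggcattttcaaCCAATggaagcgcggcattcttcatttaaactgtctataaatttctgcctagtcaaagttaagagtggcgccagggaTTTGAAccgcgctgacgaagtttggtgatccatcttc
CCNB2 promoter, chr15:59104896-59105195, plus strand: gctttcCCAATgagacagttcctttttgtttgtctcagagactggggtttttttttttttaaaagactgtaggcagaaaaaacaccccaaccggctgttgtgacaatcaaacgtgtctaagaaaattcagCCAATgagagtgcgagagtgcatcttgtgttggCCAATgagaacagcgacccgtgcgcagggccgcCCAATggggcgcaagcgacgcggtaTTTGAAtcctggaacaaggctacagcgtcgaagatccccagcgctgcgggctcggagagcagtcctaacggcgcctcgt
PLK1 promoter, chr16:23678639-23678938, plus strand: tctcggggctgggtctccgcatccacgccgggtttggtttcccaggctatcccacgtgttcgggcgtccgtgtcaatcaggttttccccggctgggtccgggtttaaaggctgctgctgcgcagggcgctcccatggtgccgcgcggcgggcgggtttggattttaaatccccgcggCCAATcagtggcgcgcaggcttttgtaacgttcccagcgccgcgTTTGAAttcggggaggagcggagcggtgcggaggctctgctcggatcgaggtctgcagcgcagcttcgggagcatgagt
LSS promoter, chr21:46228725-46229024, minus strand: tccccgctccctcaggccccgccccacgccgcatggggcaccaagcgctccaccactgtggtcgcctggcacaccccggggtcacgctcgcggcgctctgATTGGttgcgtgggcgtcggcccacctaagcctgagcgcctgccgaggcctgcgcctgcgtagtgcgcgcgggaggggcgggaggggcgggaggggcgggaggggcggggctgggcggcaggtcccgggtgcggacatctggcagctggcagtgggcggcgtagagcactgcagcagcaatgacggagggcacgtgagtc
DHCR7 promoter, chr11:71448344-71448643, minus strand: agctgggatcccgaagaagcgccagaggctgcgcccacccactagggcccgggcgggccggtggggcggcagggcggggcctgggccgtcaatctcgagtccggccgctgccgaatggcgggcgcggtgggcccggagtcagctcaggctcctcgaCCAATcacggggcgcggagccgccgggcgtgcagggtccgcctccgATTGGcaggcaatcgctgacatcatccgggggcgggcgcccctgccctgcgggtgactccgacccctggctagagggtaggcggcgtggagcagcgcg
Of 27 matched promoters of the mitosis list 19 held a CHR (70.4%) and 20 a CCAAT box (74.1%), against 10.4% and 37.1% of the 10804 matched promoters of genes tested. In the whole table of 27305 promoters, 15.4% held a CHR and 35.7% a CCAAT box. Of 16 matched promoters of the cholesterol list 12 held a CCAAT box (75.0%), and none held TCACNCCAC, the letters searched for the sterol regulatory element, which 1.11% of tested promoters held. The CCAAT box was not particular to lists that moved in one direction. It was in 53.1% of matched promoters of the G1/S and DNA replication list, which had no common direction. Of matched promoters of replication-dependent histones, 86.5% held it. Every list searched for these motifs lay above the 37.1% of genes tested. Among matched promoters of called genes, 41.8% of those higher and 36.6% of those lower held the CCAAT box. The CHR was in 13.9% of those higher and 6.05% of those lower. It was also in 35.1% of matched promoters of replication-dependent histones and in at most 10.0% of those of the other lists searched. Both strands were searched and the motifs can overlap other sites. A match describes letters in this window and is not a binding site. PLK1 itself had 5948 and 5348 normalized counts (day 6) and 6038, 7349 and 7196 (day 9) at 25%, against 2772, 3754 and 2487 (day 6) and 2715 and 2652 (day 9) at 50%, a change of 1.14 ± 0.12 (limma adjusted p = 2.13e-05). Every 25% library was above every 50% library.

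Genes of the G1/S transition and DNA replication showed no common direction. Of 36 tested, 8 were called higher and 7 lower, with a median change of 0.03, against 11.8% and 12.2% over all genes tested. MCM2, a subunit of the replicative helicase, had 4413 and 4486 (day 6) and 4990, 5370 and 5257 (day 9) at 25%, against 9175, 10462 and 7575 (day 6) and 11285 and 11273 (day 9) at 50% (change -1.07 ± 0.08, limma adjusted p = 3.23e-06). By contrast CDC6, which loads that helicase onto origins, averaged 3788 ± 231 at 25% and 2239 ± 338 at 50% (n = 5 each; change 0.75), again with no overlap between levels. TYMS, which makes thymidylate, averaged 6915 ± 148 at 25% and 11634 ± 1753 at 50% (change -0.76). Without the 4 libraries high in keratin 3 members of the replication list were called higher and 1 lower, and 11 were called lower without replicate 3 of 50% on day 6.

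Among cyclins of the D type and inhibitors of cyclin-dependent kinases, 4 of 13 tested genes were called higher and none lower, and 2 of 12 were called higher without the 4 libraries high in keratin. RB1, the pocket protein that holds back E2F factors, averaged 3426 ± 165 at 25% and 2176 ± 110 at 50% (n = 5 each; change 0.65). CDKN2D, an inhibitor of CDK4 and CDK6, averaged 1663 ± 254 at 25% and 954 ± 143 at 50% (change 0.86). CDKN1A, the p21 inhibitor, was not called, with 430 ± 41.3 at 25% and 512 ± 166 at 50% (change -0.08, limma adjusted p = 0.715). CCND3, a cyclin of the D type, was not called (change 0.08, limma adjusted p = 0.502). CCND2 was listed at 0 in 9 of the 10 libraries and at 34.6 in the remaining one, at 25% on day 9, and was not tested.

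Genes of the FOXO and quiescence list were higher at 25%. Of 25 tested members 15 were called higher and none lower, with a median change of 0.54. TXNIP, an arrestin-domain protein that limits glucose uptake, had 4816 and 4523 (day 6) and 4631, 4222 and 3880 (day 9) at 25%, against 2195, 1980 and 1962 (day 6) and 1725 and 1506 (day 9) at 50% (change 1.29 ± 0.08, limma adjusted p = 4.80e-07). The 25% and 50% libraries did not overlap. BTG1, an antiproliferative protein of resting lymphocytes, averaged 2750 ± 357 at 25% and 1408 ± 125 at 50% (n = 5 each; change 0.94). PIK3IP1, an inhibitor of phosphatidylinositol 3-kinase, averaged 207 ± 58.9 at 25% and 103 ± 12.7 at 50% (change 1.04). ARRDC3, another arrestin-domain gene, had 676 and 788 (day 6) and 419, 399 and 483 (day 9) at 25%, against 317, 349 and 283 (day 6) and 338 and 296 (day 9) at 50% (change 0.83 ± 0.14, limma adjusted p = 0.000900). Its 25% values were above its 50% values on both days and higher on day 6 than on day 9. With the 4 keratin-high libraries left out, 8 of 24 tested members were called higher, and with keratin as a covariate 15 of 25 were.

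Ribosome biogenesis genes were lower. Of 30 tested, 16 were called lower and 1 higher, with a median change of -0.37. BOP1, which processes the RNA of the large ribosomal subunit, had 1615 and 1441 (day 6) and 1968, 1910 and 1742 (day 9) at 25%, against 3041, 3447 and 2592 (day 6) and 3723 and 3322 (day 9) at 50% (change -0.94 ± 0.09, limma adjusted p = 9.75e-06). The levels did not overlap. UBTF, an activator of ribosomal RNA transcription, averaged 3156 ± 46.0 at 25% and 5026 ± 290 at 50% (n = 5 each; change -0.67). NOP56, a core protein of box C/D small nucleolar particles, was the member called higher, with 5286 ± 449 at 25% and 3398 ± 387 at 50% (change 0.60). Cytosolic ribosomal protein genes were mostly not called, with 0 higher and 3 lower of 40 by limma and a median of 0.01. Under upper-quartile scaling and under quantile scaling 8 were called lower, without replicate 3 of 50% on day 6 11 were, and without replicate 1 of 50% on day 9 4 were called higher and 2 lower. RPL3 was one of the 3, with 23722 ± 832 at 25% and 36492 ± 5004 at 50% (change -0.62, a call that ended in 1 of 25 alternatives). Without the 4 libraries high in keratin 5 biogenesis genes were called lower and 1 higher, and no ribosomal protein gene was called. Biogenesis genes called lower numbered 10 without replicate 2 of 25% on day 6, 10 with 5.8S rRNA as a covariate and 16 with keratin as one.

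Genes of the amino acid response did not move as a group. Of 22 tested ATF4 targets and regulators 4 were called higher and 4 lower, with a median change of -0.02, and without the 4 libraries high in keratin 4 of 21 were called higher and 3 lower. DDIT3, a stress transcription factor induced by ATF4, had 326 and 398 (day 6) and 307, 297 and 308 (day 9) at 25%, against 601, 739 and 630 (day 6) and 755 and 621 (day 9) at 50%. All 25% libraries were below all 50% libraries (change -1.01 ± 0.11, limma adjusted p = 2.38e-05). TRIB3, a pseudokinase induced by ATF4 that feeds back on it, averaged 4912 ± 267 at 25% and 9266 ± 1250 at 50% (n = 5 each; change -0.87). ATF5, a related transcription factor, averaged 20636 ± 3490 at 25% and 32990 ± 3310 at 50% (change -0.62). CHAC1, which degrades glutathione, was higher, with 783 and 706 (day 6) and 532, 532 and 524 (day 9) at 25%, against 437, 605 and 370 (day 6) and 348 and 327 (day 9) at 50% (change 0.67 ± 0.12, limma adjusted p = 0.00104). Its levels overlapped when days were ignored but not within a day. ASNS, the asparagine synthetase that ATF4 induces in many cells, was low and not called, with 28.3 ± 15.6 at 25% and 47.0 ± 40.1 at 50% (change -0.66, limma adjusted p = 0.419).

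Amino acid transporters were called higher in 8 of 17 and lower in 1, with a median change of 0.19, and higher in 5 and lower in 0 without the 4 libraries high in keratin. SLC1A5, a glutamine carrier, averaged 12192 ± 682 at 25% and 7930 ± 1127 at 50% (n = 5 each; change 0.60). SLC3A2, the shared heavy chain of several carriers, averaged 18050 ± 2480 at 25% and 10715 ± 2084 at 50% (change 0.71). SLC7A11, its cystine-importing partner, averaged 2039 ± 163 at 25% and 1293 ± 110 at 50% (change 0.65). HARS1, which charges tRNA with histidine, had 929 and 963 (day 6) and 951, 1033 and 977 (day 9) at 25%, against 1073, 1089 and 991 (day 6) and 1084 and 1012 (day 9) at 50%. Its levels overlapped and it was not called (change -0.12 ± 0.07, limma adjusted p = 0.266). Of 20 cytosolic tRNA synthetases 3 were called higher and 7 lower, with a median of -0.15, and 3 higher and 3 lower without the 4 libraries high in keratin, with a median of -0.03. QARS1, which charges glutamine, averaged 1872 ± 187 at 25% and 3795 ± 396 at 50% (change -1.01). In the list of mTORC1 amino acid sensing, 3 of 29 were called higher and 5 lower, 2 higher and 1 lower without the 4 libraries high in keratin, and 5 higher without replicate 2 or without replicate 3 of 50% on day 6.

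Some regulators of inflammation and stress were higher. Of 27 tested immediate-early and NF-kB genes 9 were called higher and 3 lower, with a median change of 0.20. With the 4 keratin-high libraries left out, 5 of 25 were called higher and none lower. Without replicate 2 or without replicate 3 of 25% on day 6, none was called lower. JUN, a subunit of AP-1, had 1035 and 1376 (day 6) and 1276, 1108 and 1023 (day 9) at 25%, against 461, 493 and 467 (day 6) and 465 and 284 (day 9) at 50% (change 1.48 ± 0.14, limma adjusted p = 9.75e-06). Each 25% library was above each 50% library. RELB, an NF-kB subunit, averaged 438 ± 64.9 at 25% and 197 ± 40.7 at 50% (n = 5 each; change 1.14). BIRC3, an NF-kB target that restrains cell death, averaged 270 ± 63.3 at 25% and 131 ± 32.8 at 50% (change 1.15). Of 22 p53 targets 3 were called higher and 2 lower, shares near those over all genes (11.8% and 12.2%), and 6 were called higher without replicate 2 of 50% on day 6. GADD45A, a growth arrest and DNA damage gene, averaged 1662 ± 82.0 at 25% and 828 ± 78.3 at 50% (change 1.00), whereas PHLDA3, an inhibitor of AKT, averaged 83.8 ± 5.06 at 25% and 185 ± 32.0 at 50% (change -1.16).

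Most T-lineage genes were not called, with 3 of 33 higher and 4 lower, 3 and 2 without the 4 libraries high in keratin, and 7 and 6 without replicate 1 of 50% on day 9. The counts with all 10 libraries were near the shares over all genes tested, 11.8% higher and 12.2% lower. CD28, a costimulatory receptor, had 613 and 628 (day 6) and 510, 591 and 467 (day 9) at 25%, against 281, 172 and 287 (day 6) and 234 and 240 (day 9) at 50% (change 1.25 ± 0.14, limma adjusted p = 3.83e-05). GATA3, a transcription factor of T-cell development, averaged 2796 ± 424 at 25% and 1475 ± 280 at 50% (n = 5 each; change 0.84). CD7, an early T-cell surface protein, averaged 4945 ± 337 at 25% and 8946 ± 973 at 50% (change -0.85). Neither CD28 nor CD7 overlapped between levels. NOTCH receptors and targets had 4 of 16 called higher and 1 lower, and 2 higher and none lower without the 4 libraries high in keratin. The gene called lower was HES1, a NOTCH target (change -0.25, limma adjusted p = 0.0447), whose call ended in 16 of 25 alternatives. MYC, a NOTCH and growth regulator, was not called, with 10321 ± 720 at 25% and 12489 ± 1970 at 50% (change -0.21, limma adjusted p = 0.0641). B-cell markers, which this line expresses in part (CD79A at 11845 or more in every library), were called higher in 3 of 5 tested, and in 0 of 5 by limma without the 4 libraries high in keratin. They were also called higher in 1 of 5 without replicate 2 of 25% on day 6. Their sum was 20993 to 25022 at 25% and 13872 to 21708 at 50%. The sum of erythroid markers was 160 to 181 at 25% and 126 to 157 at 50% (exact permutation within days, two-sided, p = 0.01, the smallest possible), and nearly all of it was EPOR, the erythropoietin receptor, which was not called (change 0.24, limma adjusted p = 0.192). Of the myeloid markers only CD68, a lysosomal protein of macrophages, was tested. It averaged 20.1 ± 14.4 at 25% and 38.2 ± 17.9 at 50% (change -1.17, limma adjusted p = 0.0390), and its call ended in 15 of 24 alternatives. The part of other cell types in the results was not tested.

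Metabolic lists were mixed. Glycolysis and hypoxia genes were called higher in 6 of 32 and lower in 11. PFKL, a phosphofructokinase, averaged 3135 ± 310 at 25% and 5459 ± 253 at 50% (n = 5 each; change -0.79), while HIF1A, the hypoxia-inducible factor, averaged 2517 ± 152 at 25% and 1625 ± 98.1 at 50% (change 0.61). Purine synthesis genes were called lower in 7 of 14 and higher in 1. Respiratory chain genes of the nucleus were called higher in 6 of 38 and lower in 6, against 11.8% and 12.2% over all genes tested. CYC1, a subunit of complex III, averaged 1375 ± 50.3 at 25% and 2901 ± 541 at 50% (change -1.08). None of the 13 mitochondrially encoded genes was called by limma. TFRC, the transferrin receptor, averaged 797 ± 123 at 25% and 1665 ± 226 at 50% (change -1.10). Without the 4 libraries high in keratin, glycolysis and hypoxia genes were called higher in 5 and lower in 3, purine genes lower in 2, and respiratory chain genes higher in 1 and lower in 1. Respiratory chain genes called higher numbered 2 without replicate 2 and 3 without replicate 3 of 25% on day 6, and 11 without replicate 1 and 3 without replicate 2 of 50% on day 9. Without replicate 1 of 50% on day 9, 3 mitochondrially encoded genes were called higher.

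CLK kinases and SR splicing factors moved in both directions, with 8 of 18 called higher and 6 lower. CLK1, a kinase of SR proteins, had 649 and 714 (day 6) and 1600, 1526 and 1434 (day 9) at 25%, against 146, 222 and 183 (day 6) and 550 and 468 (day 9) at 50% (change 1.74 ± 0.12, limma adjusted p = 1.20e-06). It was higher at 25% on both days and higher on day 9 than on day 6 at both levels. With the 4 keratin-high libraries left out, 5 members were called higher and 1 lower, and 5 were called higher without replicate 2 of 25% on day 6.

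**Figure D2:**
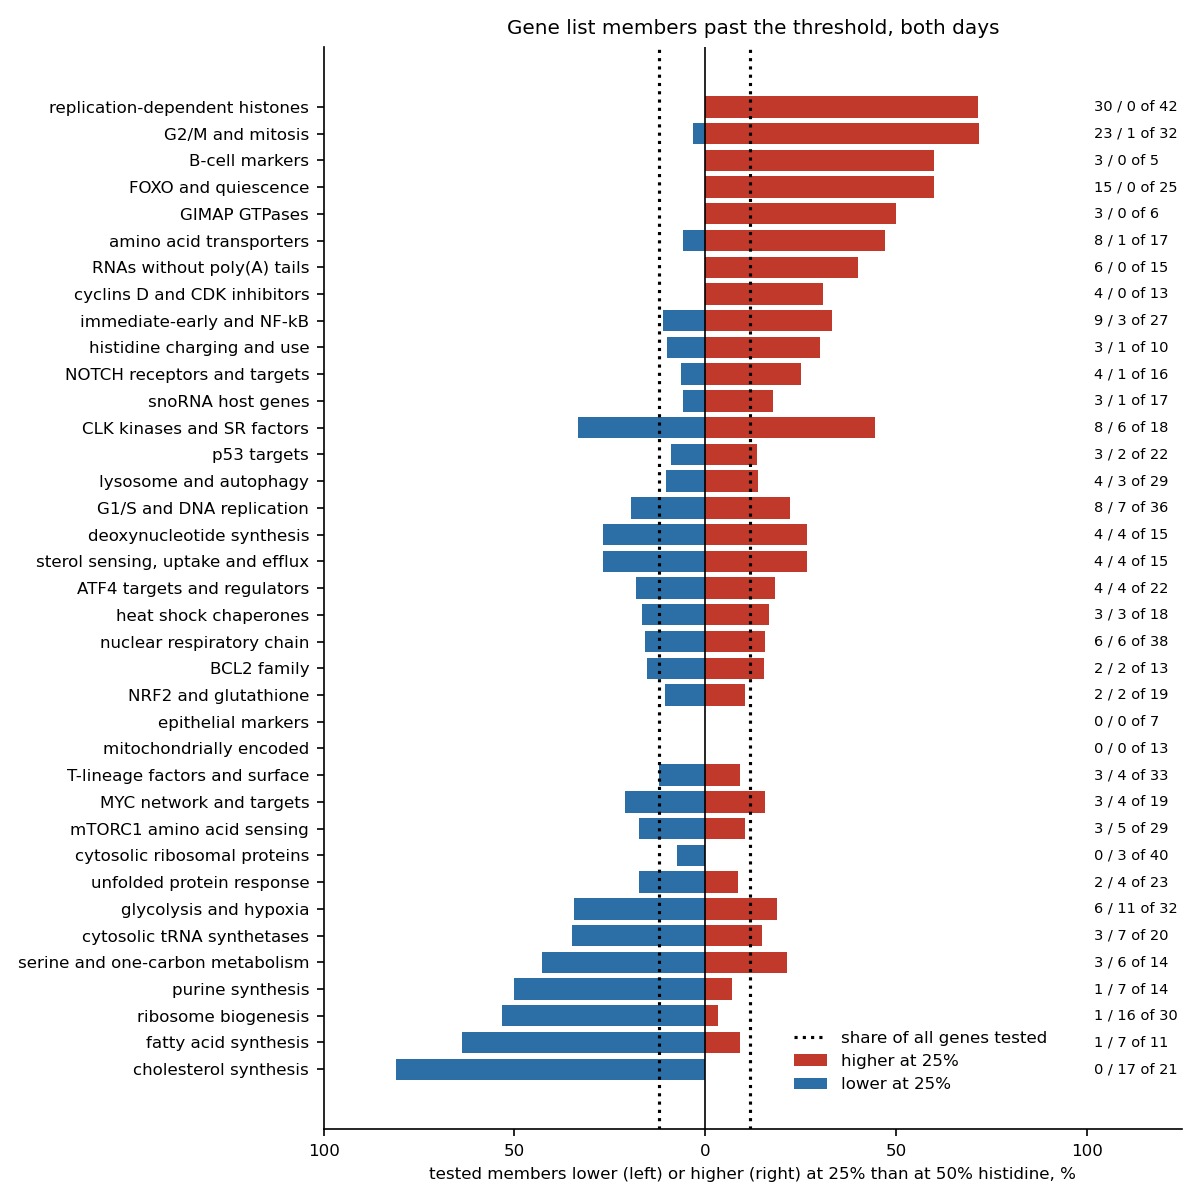
Share of tested members of each gene list called higher (red, right) or lower (blue, left) at 25% than at 50% histidine, in percent, with the counts of higher and lower calls and of members tested at the right. Lists with 5 or more tested members are drawn, in order of the share higher minus the share lower. Dotted lines mark 11.8% higher and 12.2% lower over all genes tested. Cholesterol synthesis, with 17 of 21 lower, and histones, with 30 of 42 higher, stand at the ends of this order.

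Replication-dependent histones, whose messages normally lack a poly(A) tail, were called higher in 30 of 42 and lower in none, with a median change of 1.04. Their summed level was 11739 and 7992 (day 6) and 5337, 6811 and 16334 (day 9) at 25%, against 2348, 2340 and 2033 (day 6) and 3072 and 7960 (day 9) at 50% (exact permutation within days, two-sided, p = 0.03, where 0.01 is the smallest possible). On day 6 the levels were apart, and on day 9 they overlapped. At 100% histidine the sums were 2505, 5386 and 13218 (day 6) and 2184, 5223 and 4247 (day 9). On day 6 this range held the 25% sums, and the 50% sums lay below it. Relative to 100% of the same day, the list median on day 6 was 0.64 at 25% and -0.998 at 50%. On day 9 it was 0.76 and 0.11. Much of the day 6 difference thus lay in low 50% libraries. Among other RNAs without poly(A) tails, 6 of 15 were called higher and none lower, with a median change of 1.01. None was called with 5.8S rRNA as a covariate, where the median was 0.06, nor among 13 without the 4 libraries high in keratin. Without replicate 2 or replicate 3 of 25% on day 6, replicate 3 of 25% on day 9 or replicate 1 of 50% on day 9, the calls were 0, 1, 3 and 1. The sum over that list was 26054 at the median of the 25% libraries and 10079 at the median of the 50% libraries (exact permutation p = 0.08). The 5.8S rRNA, of the ribosome, was 674 and 314 (day 6) and 236, 295 and 882 (day 9) at 25%, against 145, 157 and 153 (day 6) and 142 and 593 (day 9) at 50% (exact permutation p = 0.19). At 100% histidine 5.8S rRNA ran from 153 to 1181, and the sum over RNAs without poly(A) tails from 7882 to 28825. With the 5.8S level as a covariate 13 histone genes were called higher, with a median change of 0.63. Without the 4 libraries high in keratin 1 was called, with a median of 1.02, and with keratin as a covariate 28 were. Without replicate 2 of 25% on day 6, 19 were called. Histone genes also share reads with near-identical copies, which makes single genes uncertain. H2AC6, for example, had 281 and 162 (day 6) and 217, 243 and 286 (day 9) at 25%, against 73.1, 83.2 and 85.5 (day 6) and 90.8 and 123 (day 9) at 50% (change 1.31 ± 0.17, limma adjusted p = 9.85e-05), and its call stood in all 25 alternatives.

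**Figure D3:**
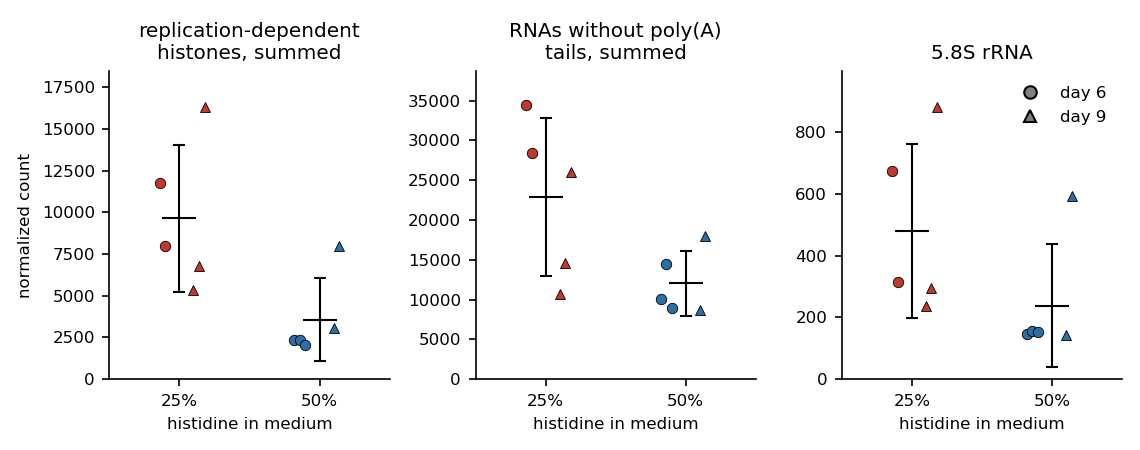
Summed normalized counts per library (linear axes from 0) of replication-dependent histones, of RNAs without poly(A) tails and of 5.8S rRNA, at 25% histidine (red, left) and 50% (blue, right), with circles for day 6, triangles for day 9 and bars for mean and SD of 5 libraries. The 25% libraries reach 16334 for histones and 882 for 5.8S rRNA, and the same 50% library, day 9 replicate 2, is the highest of its level in all panels.

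The 10 largest rises among called genes with a mean of at least 50 at the higher level and no overlap between levels within a day were led by H3C14 (2.80), MMP9 (2.49), TRBV6-2 (2.12), H2AC12 (1.94) and TMEM198 (1.94), followed by CDCP1 (1.89), H3C6 (1.82), H3C2 (1.81), SYP (1.77) and CLK1. MMP9, a secreted gelatinase, had 64.2 and 56.2 (day 6) and 103, 79.0 and 98.8 (day 9) at 25%, against 11.0, 24.0 and 4.11 (day 6) and 16.4 and 13.1 (day 9) at 50% (limma adjusted p = 0.000209). TRBV6-2, a variable segment of the T-cell receptor beta chain with a near-identical copy, had 1246 and 1134 (day 6) and 1588, 1448 and 1282 (day 9) at 25%, against 283, 308 and 185 (day 6) and 366 and 345 (day 9) at 50% (limma adjusted p = 4.80e-07). SYP, a protein of synaptic vesicles, averaged 690 ± 89.5 at 25% and 200 ± 27.5 at 50% (n = 5 each). None of the libraries of these 3 genes overlapped between levels. H3C14, which has a near-identical copy, was listed at 0 in 1 of the 50% libraries and its call ended in 10 of 25 alternatives. The calls of H2AC12, CDCP1 and H3C2 ended without the 4 libraries high in keratin.

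Under the same conditions the 10 largest falls were EIF3J-DT (-2.47), PRMT7 (-2.37), PDCD6P1 (-2.23), UNC5B (-1.88), BCL2L2-PABPN1 (-1.74), TMEM67 (-1.62), CENPS-CORT (-1.59), SEPTIN5 (-1.54), DHCR7 and CKAP4 (-1.49). UNC5B, a netrin receptor, had 43.6 and 50.3 (day 6) and 46.1, 50.6 and 39.3 (day 9) at 25%, against 161, 159 and 172 (day 6) and 158 and 208 (day 9) at 50% (limma adjusted p = 3.65e-06). CKAP4, a membrane protein of the endoplasmic reticulum, averaged 38.3 ± 12.8 at 25% and 106 ± 20.6 at 50% (n = 5 each). Both were apart between levels in every library. EIF3J-DT runs from the promoter of its neighbour, PDCD6P1 is a pseudogene, and BCL2L2-PABPN1 and CENPS-CORT are readthroughs that share reads with their neighbours, so their levels are uncertain. Calls of EIF3J-DT, PRMT7, PDCD6P1 and BCL2L2-PABPN1 ended in 4, 5, 7 and 4 of 25 alternatives, and those of CENPS-CORT and SEPTIN5 in 1.

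The days were next compared as separate sets of libraries. On day 6, 1102 genes were called higher at 25% (6.55%) and 933 lower (5.55%), in all 12.1%. On day 9, 988 were called higher (5.88%) and 1103 lower (6.56%), in all 12.4%. The same direction was called on both days for 1121 genes, 55.1% of the day 6 calls and 53.6% of the day 9 calls, and the opposite direction for 1. The changes of the days correlated at 0.32 across genes, which are not independent replicates. No gene had a change that differed between days in limma (0 of 16816 called, 1020 with an unadjusted p below 0.05), and no other tool was run. Cholesterol synthesis genes were called lower in 11 of 21 on day 6 and in 16 on day 9, and none was called higher on either day. Mitosis genes were called higher in 17 of 32 on day 6 and in 23 on day 9. Histone genes were called higher in 27 of 42 on day 6 and in 4 on day 9. FOXO and quiescence genes were called higher in 12 of 25 on day 6 and in 6 on day 9. The difference between days in these counts was not itself tested.

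**Figure D4:**
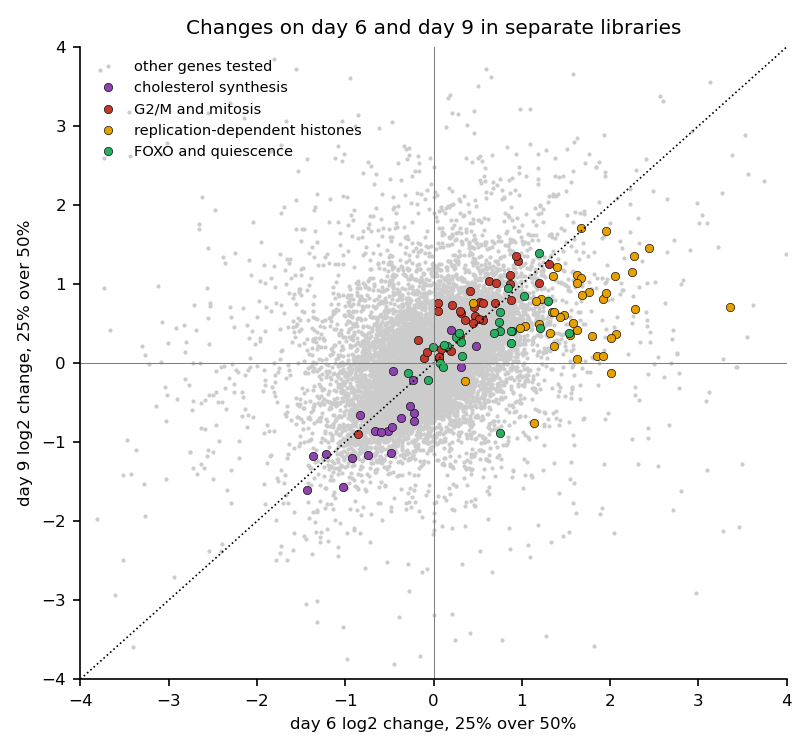
Log2 change, 25% over 50% histidine, on day 6 (horizontal) and day 9 (vertical) for the genes tested, with members of 4 lists in colour and the dotted line where both days are equal. Axes end at 4, which leaves 30 genes outside. Cholesterol genes lie mostly at the lower left, mitosis genes at the upper right, and most histone genes to the right of the line.

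The last question was how this halving of histidine differed from the halving before it and the one after it, which share the 50% and the 25% libraries with it. In a fit of 22 libraries, 50% against 100% gave 0 calls in limma among 18458 genes (763 with an unadjusted p below 0.05), 25% against 50% gave 4646 (25.2%) and 12.5% against 25% gave 4601 (24.9%). The change of the second halving exceeded that of the first in 718 genes (3.89%) and was below it in 734 (3.98%), in all 7.87%. The change of the third halving exceeded that of the second in 1655 genes (8.97%) and was below it in 2191 (11.9%), in all 20.8%.

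Mitosis genes turned round at the third halving. Changes are compared here with their sign. Of 32, 13 had a higher change over the second halving than over the first and 1 a lower one. Over the third halving 31 had a lower change than over the second, with list medians of -0.78 and 0.53. At 12.5% against 25% itself, 31 of 32 were called lower. NDC80 had medians of 2951, 5146, 2042 and 1927 normalized counts at 12.5%, 25%, 50% and 100% histidine, so that its level was highest at 25%. Its change over the third halving was 2.13 log2 units below that over the second, written as -2.13 ± 0.11 (limma adjusted p = 9.93e-10). NDC80 was chosen by its p at 25% against 50%, and PLK1 was named after its values were seen. The 25% and 50% libraries also enter this difference, so part of it may come from that choice. The p of NDC80 here is therefore no separate support. PLK1 had medians of 2075, 6038, 2715 and 2508 at the same levels. AURKB, in contrast, had medians of 1245, 2126, 3724 and 3466, lower at each level of histidine below 50%. The median of the list, relative to 100% of the same day, was -0.20, 0.56 and 0.08 at 12.5%, 25% and 50% on day 6 and -0.12, 0.80 and 0.19 on day 9.

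Cholesterol genes fell over the third halving as well, with 15 of 21 called lower at 12.5% than at 25% (14.9% of all genes were). The fall of the second halving was the larger for some of them. Of 21 cholesterol genes 12 had a lower change over the second halving than over the first and none a higher one. Over the third halving 6 had a change above that over the second (a smaller fall or none) and 2 one below it. LSS had medians of 1140, 1033, 2722 and 2895 at 12.5%, 25%, 50% and 100%, so its level at 12.5% was close to that at 25%. DHCR7 had medians of 432, 550, 1723 and 1899, and SCD of 6228, 9009, 22473 and 22478. Their ranges at 50% and 100% overlapped. Ribosome biogenesis genes had their lowest list median at 25%, with -0.02, -0.45 and -0.0040 at 12.5%, 25% and 50% on day 6, and 14 of 30 had a higher change over the third halving than over the second.

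For other genes the medians at 12.5% and 25% were close to each other and apart from those at 50% and 100%. TXNIP had medians of 5080, 4523, 1962 and 2002 at 12.5%, 25%, 50% and 100%, CD28 of 590, 591, 240 and 266, and GATA3 of 2716, 2928, 1320 and 1497. DDIT3 had medians of 386, 308, 630 and 621. TRBV6-2 peaked at 25%, with medians of 683, 1282, 308 and 310, and so did TMEM198, a transmembrane protein, with 117, 310, 68.7 and 84.5. Both were named for their rise at 25% over 50%, so a high level at 25% is no separate result. HARS1 had medians of 856, 963, 1073 and 1060. The FOXO and quiescence list, which holds TXNIP, did not keep its level as a group. Relative to 100% of the same day, its median was 0.25, 0.52 and -0.09 at 12.5%, 25% and 50% on day 6. On day 9 it was 0.28, 0.55 and 0.16. Of 25 members, 14 had a change over the third halving below that over the second and 1 had one above it. At 12.5% against 25% itself, 8 were called lower and 2 higher (14.9% and 10.0% of all genes were).

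Genes with the largest differences between halvings were mostly low or spread widely. Between the second and the first halving they were ANKRD20A2P (4.96), H3C14 (4.77) and SENP3-EIF4A1 (3.15) on the higher side and UNC5B (-2.03), SNHG33 (-1.77) and SCARB1 (-1.73) on the lower. UNC5B had medians of 28.0, 46.1, 161 and 157 at 12.5%, 25%, 50% and 100%, and its difference had a limma adjusted p of 0.000622. Between the third and the second they were TRO (4.91), HCG18 (4.65) and EIF3J-DT (4.56) on the higher side and H4C3 (-6.02), RPPH1 (-5.31) and RMRP (-4.37) on the lower. ANKRD20A2P is a pseudogene and SENP3-EIF4A1 a readthrough, both uncertain in level. RPPH1 and RMRP are RNAs without poly(A) tails.

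**Figure D5:**
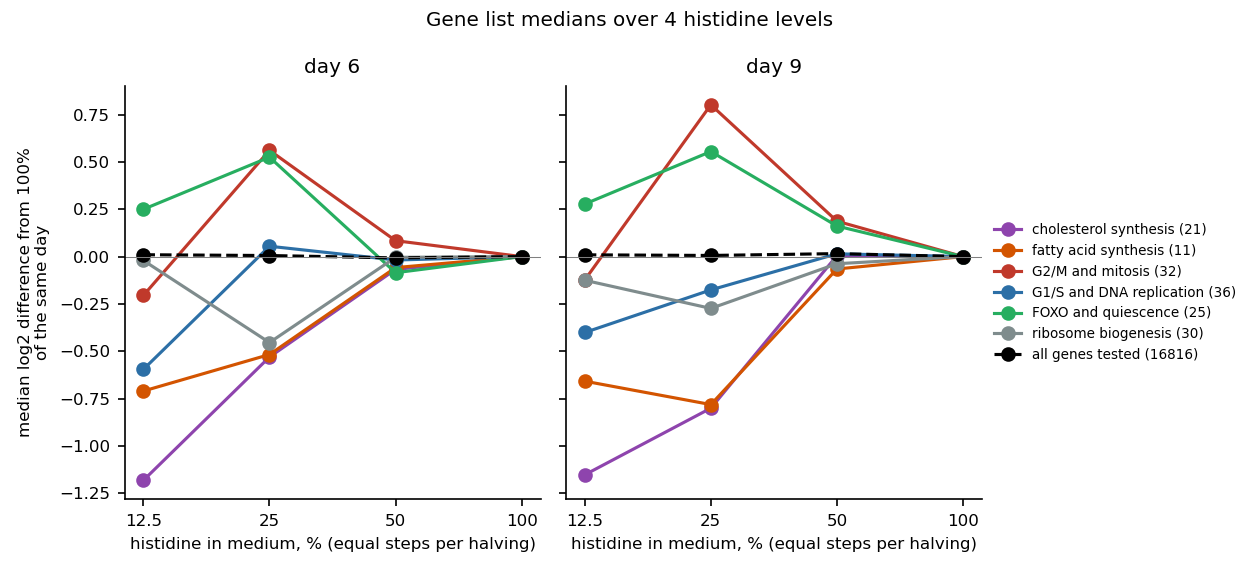
Median log2 difference from 100% histidine of the same day (vertical) at 12.5%, 25%, 50% and 100% histidine (horizontal, equal steps), for 6 gene lists and all genes tested, with day 6 on the left and day 9 on the right. The mitosis list peaks at 25%, at 0.56 and 0.80, and the cholesterol list falls to -0.53 and -0.80 at 25% and to -1.18 and -1.15 at 12.5%.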

How the data were processed

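RNA of DND-41 cells was sequenced from strand-specific libraries made from total RNA. Per the submitters' processing notes, reads were handled with FastQC 0.11.9, kallisto 0.50.1 and DESeq2 1.44.0 on GRCh38; the sources used here give neither annotation release nor strand setting. The deposited signal values are normalized counts, in which the authors scaled estimated reads per gene between libraries. Whole reads could not be recovered, because the share of small values (under 20) that were whole multiples, to a tolerance of 0.05, was 57.9% to 76.1% per library. No count model was therefore run, and the read depth behind a value is unknown. The table held 31919 genes, 9278 of them named by Ensembl ID only.

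Tests used the limma package (3.58.1; R 4.3.3) and its trend of variance on mean, applied to log2(normalized count + 1), for genes at 10 or more in at least 2 of the fitted libraries. The 10 libraries were fitted with level and day (7 residual degrees of freedom), and with 4 group means for each day and their difference (6). Halvings were compared in a fit of 22 libraries (14). The libraries without histidine were not used, since 1 carries conflicting day labels. P-values were adjusted by Benjamini-Hochberg within a comparison. Sums over libraries were compared by an exact permutation test within days. The fits were tested on simulated data. Promoter sequences came from RefSeq.

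Named genes were the 10 largest changes each way among called genes with a mean of at least 50 at the higher level and no overlap within a day, up to 4 members per list by p, genes fixed by name, and the 3 largest differences each way between halvings. AURKB, PLK1, ELOVL5, EPOR and PTCRA, outside this rule, were chosen after their values were seen. The comparison and the gene lists were chosen with earlier results of these data known. Alternatives covered scaling, filter, pseudocount, trend, library weights, day term, replicate number, keratin-high libraries (sum over 100), 5.8S rRNA and each library in turn. Some genes that the rule names are not reported here.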

Additional observations from a re-analysis of the deposited data

Results flagged for a closer look

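In groups of 5 libraries, pooled over days, 19 values stood far from the other 4, among 192 groups of values examined. A share of 1 in 20 by chance assumes 5 libraries of the same day and separate measures. That did not hold here, since days were mixed and some measures share genes. The 50% library of day 9, replicate 2, held 8 of the 19 values. There 5.8S rRNA was 593 (142 to 157 in the other 50% libraries), the histone sum 7960 (2033 to 3072), H4C3 4349 (421 to 1030), H3C2 62.4 (18.2 to 30.1), RMRP 101 (17.3 to 39.6) and RPPH1 83.4 (3.00 to 13.8), while JUN was low at 284 (461 to 493). UNC5B was also highest there, at 208 (158 to 172).

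The 25% library of day 9, replicate 3, stood apart in H3C6, at 124 (65.2 to 81.1), in RB1, at 3707 (3301 to 3412), in CCND2, at 34.6 (0 in the others), and in AURKB, low at 1959 (2102 to 2154). At 50%, keratins reached 1196 in replicate 1 of day 6 (1.68 to 119), PLK1 3754 (2487 to 2772) and SNHG33 79.1 (50.8 to 56.9) in replicate 2 of day 6, and ASNS 116 (9.86 to 39.0) in replicate 3 of day 6. In replicate 1 of day 9 at 50%, SCD was 18830 (21935 to 23083) CENPS-CORT 92.8 (76.2 to 80.8) and EPOR 153 (122 to 129.6).

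Of the genes named, 2 moved in opposite directions on the days in every library. With so few libraries per group such a pattern can arise by chance. How often it did over all genes was not counted, so no conclusion is drawn from these 2 genes. CDKN1A had 479 and 467 at 25% against 563, 705 and 612 at 50% on day 6, and 419, 400 and 385 at 25% against 324 and 354 at 50% on day 9. Its change on day 9 exceeded that on day 6 by 0.64, with a limma adjusted p of 0.747 for the difference. HCG18 had 18.2 and 0 at 25% against 115, 104 and 82.9 at 50% on day 6, and 105, 38.0 and 50.6 at 25% against 36.0 and 30.9 at 50% on day 9. Its difference was 5.32, with a limma adjusted p of 0.496.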

How the results depend on the processing

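Over both days, 4032 genes were called. The count was 1351 without the 4 libraries high in keratin (792 higher, 559 lower, 1316 also called with all 10), in a fit of 6 libraries in place of 10. It was 3733 with keratin as a covariate (3697 shared), 2675 with 5.8S rRNA as a covariate (1375 higher, 1300 lower), and 3093 to 4406 when each library was left out in turn. On day 6, where 2035 were called, it was 1059 with no mean-variance trend, 3715 with library weights, and 623 to 2317 without each library. The lowest, 623, came without replicate 3 of 25%; without replicate 2 of 25% it was 634, and without replicate 1 of 50% 1216. On day 9, where 2091 were called, it was 1051 with no trend and 892 to 2609 without each library, with 892 without replicate 1 of 50% and 1203 without replicate 2 of 25%. Leaving out a library of 25% on day 6 or of 50% on day 9 left 1 library there, which is assumed to vary like the other groups. The difference between days gave 3 calls with no trend and 0 to 5 without each library. The second halving minus the first, with 1452 calls, gave 2501 with library weights and 853 to 1546 without each library, the lowest without replicate 1 of 50% on day 9. The third minus the second, with 3846, gave 2494 to 4159, the lowest without replicate 2 of 25% on day 6. Of 4413 alternative values of named genes 4169 kept their side of the threshold, 238 lost their call and 6 gained one. The sign changed in 0 values where the gene was called in the main fit or in the alternative. Uncalled changes near 0 could change sign, as for CDKN1A (-0.19 to 0.0027) and CCND3 (-0.0545 to 0.11). The cause of these changes was not tested.

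Deviations of samples with the same replicate number from their group means correlated at 0.0239 to 0.0602 over 4 pairs. On each day 1 of the levels had only 2 libraries, whose deviations mirror each other. The check therefore cannot decide whether the number pairs samples. With the replicate number as a block 3510 genes were called, and 2924 with a block for each number within a day. The depth in reads is unknown, so no counting error can be given for genes with low values.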
